A study of Rattus norvegicus with 20 samples.

Results

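The genes described here encode the machinery of oxidative phosphorylation: the subunits of respiratory complexes I to IV and of the ATP synthase, called complex V. They were chosen by gene symbol. A probe belonged to the group when its single symbol in the platform annotation began with Ndufa, Ndufb, Ndufc, Ndufs, Ndufv, Uqcr, Cox4 to Cox8 or Atp5, or was Sdha, Sdhb, Sdhc, Sdhd or Cyc1. This gave 94 probes for 73 genes among 35129 probes, and 90 of them, for 71 genes, were bright enough to be tested among 24562 tested probes. The symbol rule also took in 6 Ndufaf genes, which encode assembly factors of complex I rather than subunits, and these are kept apart.

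RNA came from the mesenteric arteries, the resistance vessels of the gut, of female Sprague Dawley rats whose ovaries had been removed at 4 weeks of age. After 2 weeks of recovery the rats were gavaged every day for 3 weeks, and arteries were taken at 9 weeks. Every group, controls included, was therefore ovariectomised before puberty. The 4 controls received only the vehicle, a 2-hydroxypropyl-β-cyclodextrin solution. The steroidal estrogens ethinyl estradiol, estradiol benzoate and equilin were each given at 0.15 mg/kg per day to 3 rats per compound. The selective estrogen receptor modulators (SERMs), drugs that activate or block estrogen receptors depending on the tissue, were each given at 3 mg/kg per day: tamoxifen to 4 rats and raloxifene to 3. Each of the 20 rats has 1 single-colour CodeLink array, so a replicate is a rat.

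Complex I (NADH dehydrogenase) and complex II (succinate dehydrogenase) pass electrons to ubiquinone, complex III passes them to cytochrome c, and complex IV (cytochrome c oxidase) passes them to oxygen. Complexes I, III and IV pump protons out of the mitochondrial matrix, and the ATP synthase uses the return flow to make ATP. The subunits measured here are encoded in the nucleus. Vascular smooth muscle draws on both glycolysis and oxidative phosphorylation, and estrogens are known for acting on vascular mitochondria.

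The region upstream of 4 of the genes is shown because their values carry the results below: Cox7a2l, Atp5po and Ndufs1 were the members that passed the test, and Ndufa4l2 had the lowest change under ethinyl estradiol. Each line gives the 250 bases before the annotated start of the gene in RefSeq on GRCr8, 5′ to 3′ on the gene's strand. The positions are chr6:16936324-16936573 (+ strand) for Cox7a2l, chr11:44657484-44657733 (- strand) for Atp5po, chr9:72073606-72073855 (- strand) for Ndufs1 and chr7:65241919-65242168 (+ strand) for Ndufa4l2. Capitals mark matches to the motifs named after the sequences.
Cox7a2l: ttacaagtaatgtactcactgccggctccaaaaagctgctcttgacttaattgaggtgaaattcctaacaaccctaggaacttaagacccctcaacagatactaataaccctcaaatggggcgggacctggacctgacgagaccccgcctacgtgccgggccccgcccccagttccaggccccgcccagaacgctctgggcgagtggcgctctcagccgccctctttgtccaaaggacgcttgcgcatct
Atp5po: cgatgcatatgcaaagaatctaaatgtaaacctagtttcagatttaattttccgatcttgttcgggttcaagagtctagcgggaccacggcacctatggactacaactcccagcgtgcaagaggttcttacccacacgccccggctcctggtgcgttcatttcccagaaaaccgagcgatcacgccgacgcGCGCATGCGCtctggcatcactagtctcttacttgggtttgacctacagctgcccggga
Ndufs1: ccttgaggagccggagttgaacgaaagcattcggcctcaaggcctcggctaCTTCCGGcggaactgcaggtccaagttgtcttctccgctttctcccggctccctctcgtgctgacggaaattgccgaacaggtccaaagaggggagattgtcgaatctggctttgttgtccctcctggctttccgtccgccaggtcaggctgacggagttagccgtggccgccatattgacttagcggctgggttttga
Ndufa4l2: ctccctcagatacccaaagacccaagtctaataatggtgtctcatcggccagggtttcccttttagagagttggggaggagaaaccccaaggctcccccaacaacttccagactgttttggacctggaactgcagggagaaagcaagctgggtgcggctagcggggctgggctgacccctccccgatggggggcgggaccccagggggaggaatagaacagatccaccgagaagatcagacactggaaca

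Motifs were searched on both strands in this window for the 64 of 73 genes with a promoter entry. GCGCATGC, the core of the site bound by nuclear respiratory factor 1, lay in 7 of the 64 (10.9%), against 2.2% of all 33469 promoters. CCGGAAG, a site for ETS factors such as GABP, lay in 16 of the 64 (25%), against 7.27% of all. TCAAGGTCA, a site for estrogen-related receptors, lay in 1 of the 64 (1.56%), that of Atp5mc3, against 0.388% of all. The full estrogen response element, GGTCA and TGACC with any 3 bases between them, lay in 0 of the 64 and in 0.0239% of all promoters. In the sequences shown, Atp5po has the first motif on both strands, overlapping, and Ndufs1 has the second on the reverse strand. A match is a description of letters and not of binding, and a missing match says only that these letters are not in the window.

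The medians of the deposited intensities split the arrays at a gap of 0.0258 into set A, with vehicle rat 1 and the 9 estrogen rats, and set B, with vehicle rats 2, 3 and 4 and the 7 SERM rats; the labels do not name these sets. Raloxifene rat 3 stood apart: its correlation with another array averaged 0.841, against 0.919 to 0.959 for the rest. Values also drifted along the probe numbers. A probe number is read here as a row (1 to 328) followed by a column (1 to 112), which is a reading of the digits that the sources used here do not explain. In the lowest-numbered rows (1 to 41) the median deviation of the 2878 tested probes ran from -0.58 log2 units in equilin rat 3 to 0.61 in raloxifene rat 3. It was -0.33 and -0.30 in vehicle rats 1 and 2 and 0.32 and 0.41 in vehicle rats 3 and 4. Results are therefore given for all 20 arrays, with the array set as a block (each estrogen is then set against vehicle rat 1 alone), without raloxifene rat 3, and after a position correction that subtracts each array's median deviation in blocks of 8 rows by 14 columns.

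Few oxidative phosphorylation genes passed the test under any compound. A probe is called higher or lower where limma's adjusted p over all 24562 probes was under 0.05. Equilin lowered Cox7a2l, which encodes a relative of a complex IV subunit that helps respiratory complexes join into supercomplexes. Raloxifene lowered Atp5po, which encodes the stalk subunit that ties the catalytic head of the ATP synthase to its membrane part, and Ndufs1, which encodes the largest, iron-sulfur subunit of complex I. In the other comparisons no member passed.

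In vehicle rats 1 to 4 the Cox7a2l intensity was 30.5, 29.8, 42.5 and 44.3, and under equilin it was 15.8, 22.4 and 24.5. Equilin and vehicle did not overlap. Cox7a2l read 34.9, 31.4 and 30 under ethinyl estradiol, 28, 28 and 26.3 under estradiol benzoate, 32.4, 32, 43.5 and 35 under tamoxifen, and 39.3, 33.9 and 24.4 under raloxifene. Outside the equilin group only raloxifene rat 3, at 24.4, was as low as the highest equilin rat. The log2 change under equilin was -0.86 ± 0.20 (SE, n = 3 against 4; limma adjusted p = 0.026). Vehicle rats 1 and 2, which share the equilin arrays' low values in the low-numbered rows, were closer to equilin than vehicle rats 3 and 4 were. With the array set as a block the change was -0.57 ± 0.30 (limma adjusted p = 0.748), and after position correction -0.67 ± 0.20 (limma adjusted p = 0.051). The call thus ended under both settings with the direction kept.

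Atp5po (the brighter of its 2 probes, the other being dim) read 77.5, 65.9, 78.4 and 60.3 in vehicle rats and 32.9, 52.2 and 29.3 under raloxifene. The groups did not overlap. Under tamoxifen it read 53.1, 56.8, 58.8 and 55.3, all below the lowest vehicle value, and under the estrogens it lay between 57.4 and 81.3. The raloxifene change was -0.91 ± 0.18 (limma adjusted p = 0.0315), and the tamoxifen change was -0.32 ± 0.17 (limma adjusted p = 0.588). Without raloxifene rat 3 the raloxifene change was -0.75 ± 0.17 (limma adjusted p = 0.0895). After position correction it was -0.37 ± 0.14 (limma adjusted p = 0.12). With the array set as a block it was -0.88 ± 0.20 (limma adjusted p = 0.079).

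Ndufs1 read 74.5, 70.5, 63.9 and 65.8 in vehicle rats and 37.3, 47.8 and 41.8 under raloxifene, again without overlap. It read 81.3, 72.4 and 87.4 under ethinyl estradiol and 59.8, 52.4, 67.8 and 40.6 under tamoxifen. Estradiol benzoate and equilin rats lay between 59.7 and 65.7. All 3 raloxifene rats were low here. The raloxifene change was -0.69 ± 0.16 (limma adjusted p = 0.039). It was -0.69 ± 0.16 without raloxifene rat 3 (limma adjusted p = 0.107), -0.66 ± 0.18 with the array set as a block (limma adjusted p = 0.102) and -0.41 ± 0.13 after position correction (limma adjusted p = 0.0756).

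**Figure D1:**
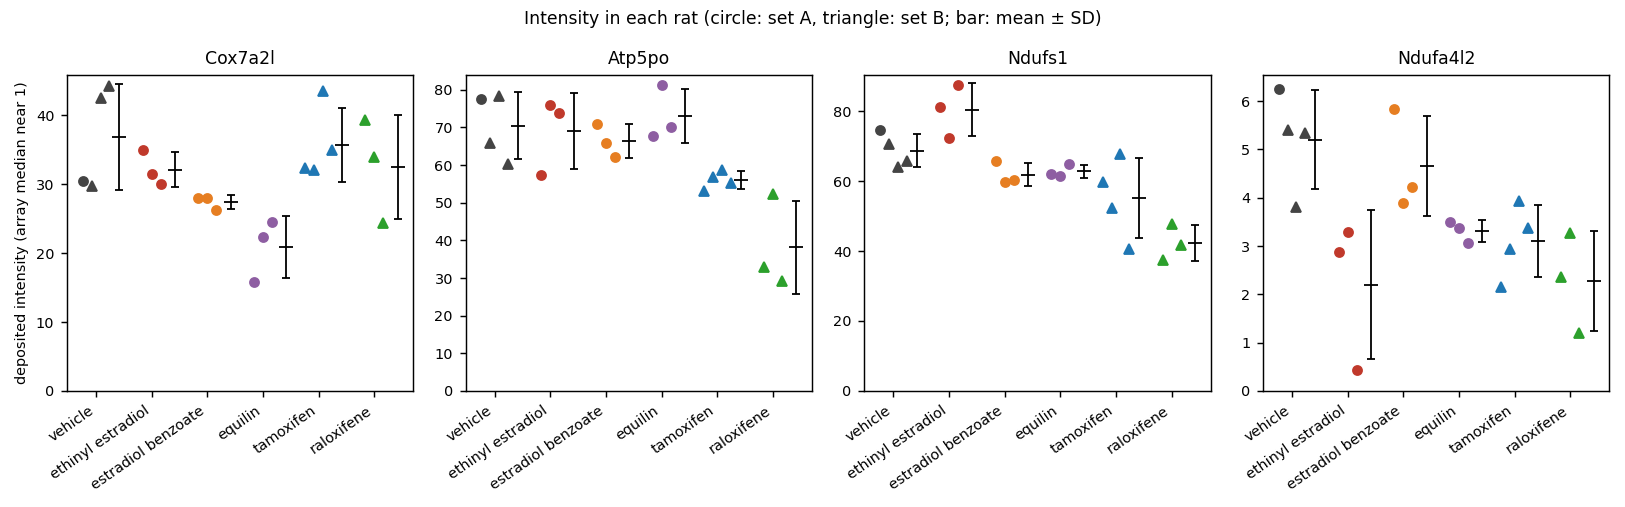
Deposited intensity (y axis, from 0) of Cox7a2l, Atp5po, Ndufs1 and Ndufa4l2 in each rat, by group; circles are set A, triangles are set B, and the bar is the group mean ± SD. Equilin rats lie at 15.8 to 24.5 for Cox7a2l, where vehicle rats lie at 29.8 to 44.3, and the 3 raloxifene rats are the lowest of all for Atp5po.

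These counts stand beside those over all tested probes. With equilin, 1 of 90 member probes was called, against 3.69% of all. With raloxifene, 2 of 90 were called, against 2.04% of all. No member was called with ethinyl estradiol, estradiol benzoate or tamoxifen, where 1.2%, 0.7% and 0.224% of all probes were. None was called for the mean of the 3 estrogens (2.61% of all) or of the 2 SERMs (0.574%). None was called between ethinyl estradiol and estradiol benzoate (0.281%), ethinyl estradiol and equilin (0.175%), equilin and estradiol benzoate (0%) or tamoxifen and raloxifene (0.00407%). With the array set as a block 0 members were called for any of the 5 compounds, where 0.546%, 0.407%, 0.647%, 0.106% and 0.0204% of all probes were, in the order ethinyl estradiol, estradiol benzoate, equilin, tamoxifen and raloxifene. The calls on the members are near or below these background shares. Absence of overlap with the vehicle rats was common over all tested probes. It held for 7 of 90 members under ethinyl estradiol (13% of all) and 11 under estradiol benzoate (13.8%). Under equilin it held for 21 (29.4%), under tamoxifen for 7 (6.65%) and under raloxifene for 21 (17%).

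At an unadjusted p under 0.05 (limma), 6 members differed from vehicle under ethinyl estradiol (13.9% of all probes did), 2 under estradiol benzoate (7.69%), 7 under equilin (21.4%) and 6 under tamoxifen (8.97%). Raloxifene had the highest count, 37 of 90, against 27.6% of all probes, and 31 of those were lower, against 15.8% of all probes. For the class means the counts were 5 for the estrogens (17.7%) and 17 for the SERMs (20.4%). Between compounds they were 8 for ethinyl estradiol and estradiol benzoate (9.04%), 4 for ethinyl estradiol and equilin (9.61%), 2 for equilin and estradiol benzoate (3.4%) and 21 for tamoxifen and raloxifene (13.4%). With the array set as a block 34 members passed this looser limit under raloxifene (21.9% of all). Without raloxifene rat 3 the count was 10, of which 7 were lower, against 12.6% of all probes, and 0 members were called at the adjusted limit (0.057% of all). Between tamoxifen and raloxifene the count without that rat was 4 (3.43%).

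The members' median changes were small. Under raloxifene the median change of the 90 probes was -0.34, against -0.02 for all tested probes, and 63 of the 90 were negative. Without raloxifene rat 3 this median was -0.10 against -0.037, with 57 of the 90 negative. Under estradiol benzoate it was -0.19 against -0.12 for all, with 79 of 90 negative, and under equilin -0.19 against -0.17, with 65 of 90 negative. The equilin median of the members was thus close to that of the whole table. Under ethinyl estradiol the median was 0.02 against -0.05, and under tamoxifen -0.04 against -0.03. After position correction the members' medians were 0.05, -0.08, 0.00, -0.04 and -0.22 for ethinyl estradiol, estradiol benzoate, equilin, tamoxifen and raloxifene, with all-probe medians between -0.0087 and 0.015. With position correction and without raloxifene rat 3 the raloxifene median was -0.062, against 0.0037 for all probes. With the array set as a block the members' medians, in the same order, were 0.13, -0.089, -0.053, -0.13 and -0.39. Those of all probes were -0.0077, -0.058, -0.15, -0.042 and -0.029.

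By complex, 31 probes were counted under complex I by their Nduf symbols. They include Ndufa4l2, which encodes a relative of a complex IV subunit. The mean level of the 31 (mean of the centred log2 values) was 3.91 ± 0.14 (SD, n = 4) in vehicle rats. It was 3.78 ± 0.089, 3.72 ± 0.11 and 3.71 ± 0.11 under ethinyl estradiol, estradiol benzoate and equilin (n = 3 each), 3.75 ± 0.26 under tamoxifen (n = 4) and 3.48 ± 0.43 under raloxifene (n = 3). In raloxifene rats 1, 2 and 3 it was 3.70, 3.75 and 2.98, so the low mean and its wide SD came from rat 3. Against vehicle the raloxifene mean differed by -0.43, by -0.47 within set B and by -0.19 without rat 3.

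The ATP synthase had the largest raloxifene difference among the complexes. Its 15 probes averaged 5.48 ± 0.18 in vehicle rats and 5.32, 5.24 and 4.03 in raloxifene rats 1, 2 and 3. The raloxifene difference from vehicle was -0.62 with all rats and -0.20 without rat 3. Tamoxifen rats, at 5.30, 5.35, 5.24 and 5.24, differed from vehicle by -0.20 on average, and estradiol benzoate rats, at 5.32, 5.30 and 5.30, by -0.17. Vehicle rats ran from 5.30 to 5.74 here, so the ranges of these groups touched or overlapped.

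The 19 complex II probes, 16 of them for Sdha, averaged 3.25 ± 0.19 in vehicle, 3.43 ± 0.16 under ethinyl estradiol, 3.41 ± 0.26 under tamoxifen and 3.28 ± 0.14 under equilin. Raloxifene rats read 3.31, 3.34 and 2.27, a difference of -0.27 with rat 3 and 0.081 without it. The 8 complex III probes averaged 4.74 ± 0.24 in vehicle, 4.50 ± 0.069 under estradiol benzoate and 4.47 ± 0.18 under equilin, but vehicle rats 1 and 2 (4.53 and 4.52) lay within the treated range and rats 3 and 4 (4.93 and 4.97) above it. Within set A the equilin difference for complex III shrank from -0.26 to -0.055, and after position correction it was 0.013. The 11 complex IV probes averaged 4.05 ± 0.14 in vehicle and 3.76 ± 0.25 under raloxifene. The 6 Ndufaf assembly factors averaged 2.65 ± 0.25 in vehicle and 2.14 ± 0.21 under equilin. That difference of -0.51 was -0.29 within set A and -0.30 after position correction. Raloxifene rats 1, 2 and 3 read 2.72, 2.59 and 1.09 for the same 6 genes. These differences are descriptions with no test. In RNA from whole vessels, fewer cells of a type and less RNA per cell cannot be told apart.

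**Figure D2:**
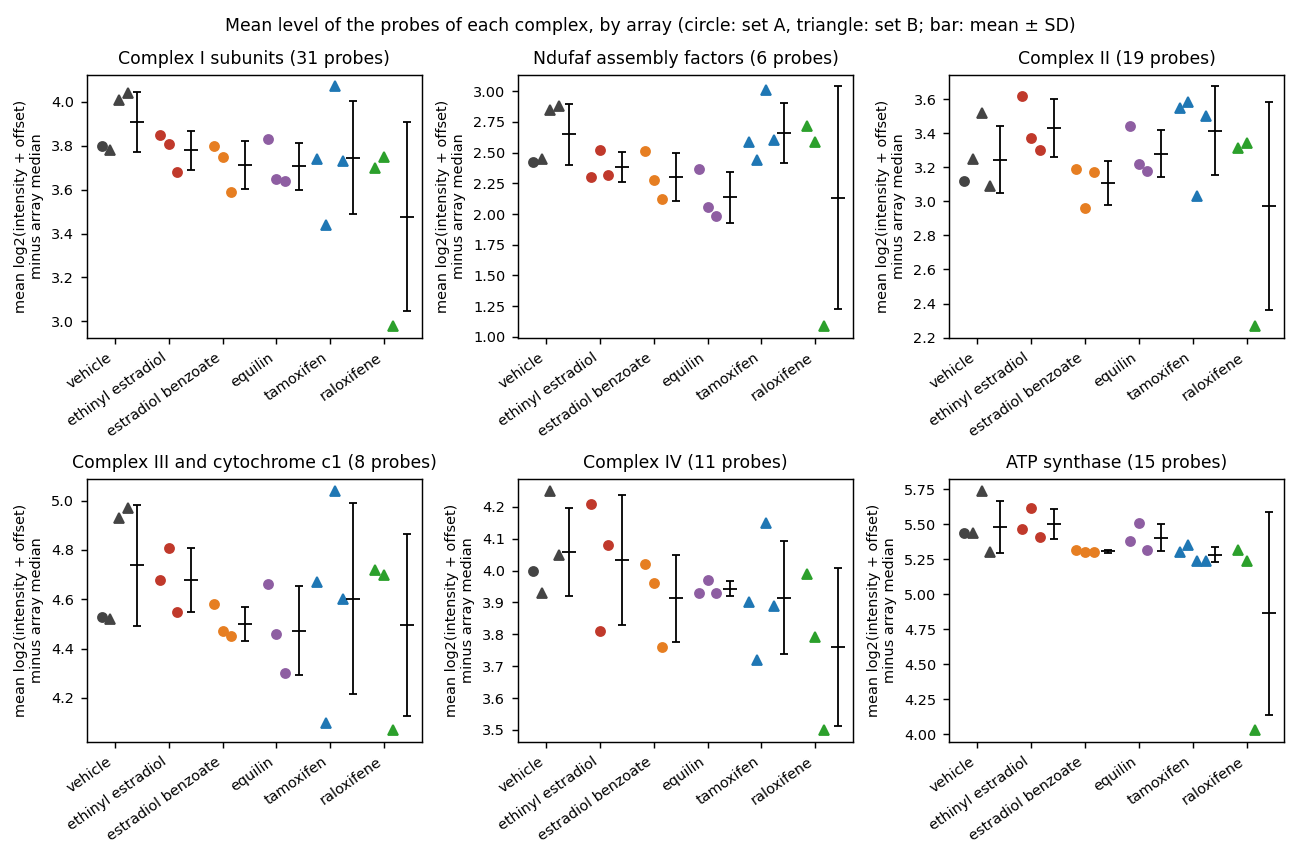
Mean level of the tested probes of each complex in every rat (y axis, mean centred log2 intensity; circles set A, triangles set B; bar, group mean ± SD). Raloxifene rat 3 is the lowest rat in every panel (4.03 for the ATP synthase, where the others lie at 5.24 or more), and vehicle rats split by pairs, most clearly in the assembly factors and complex III.

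Raloxifene rat 3 accounted for much of the low tail among single genes. A value was called a low spot when it lay 2 or more log2 units below its probe's median over the 20 rats. Of 37 low spots among the 90 member probes, 21 were in raloxifene rat 3, where 6.33% of all tested probes were low. The other rats had between 0 and 5 member low spots each, and the next highest background share was 1.96% in ethinyl estradiol rat 3. The 21 fell on all parts of the chain. They included the ATP synthase genes Atp5f1a, Atp5f1c, Atp5f1d and Atp5f1e of the catalytic head, Ndufb1, Ndufb4, Ndufb6 and Ndufb7 of the complex I membrane arm, Cox6c and Cox7b of complex IV, and Uqcrh of complex III. Atp5f1c, the gamma subunit that turns inside the catalytic head, read 45.5, 43.3, 49.8 and 62.3 in vehicle and 39.6, 41.9 and 2.76 under raloxifene. Its change of -1.55 ± 0.65 (limma adjusted p = 0.14) therefore rests on 1 rat, the other 2 being just below the lowest vehicle value. Uqcrc1, a core subunit of complex III, shows the milder pattern: 93.6, 87, 86.8 and 83 in vehicle against 66.3, 69.5 and 48.8, with a change of -0.51 ± 0.16 (limma adjusted p = 0.0743). Without raloxifene rat 3 its change was -0.35 ± 0.14 (limma adjusted p = 0.308).

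A few members went the other way in the same rats. Cyc1, the cytochrome c1 subunit of complex III, read 11.5, 9.8, 22.3 and 26.1 in vehicle and 23.5, 20.8 and 43.3 under raloxifene (0.80 ± 0.30, limma adjusted p = 0.109). Sdhc, a membrane anchor of complex II, read 16.2, 15, 28.4 and 24.7 in vehicle and 29.2, 27.7 and 46.4 under raloxifene (0.73 ± 0.23, limma adjusted p = 0.0791). Both probes lie in row 7, where all raloxifene arrays read high, and vehicle rats 1 and 2 were low at both. Sdhb, the iron-sulfur subunit of the same complex, lies in row 96 and read 35, 52.4 and 24.5 under raloxifene against 48.7 to 62.9 in vehicle (-0.60 ± 0.22, limma adjusted p = 0.106). Raloxifene rat 3 was the most extreme of the 3 for each of these genes. Without it the changes were 0.47 ± 0.29 for Cyc1, 0.49 ± 0.23 for Sdhc and -0.33 ± 0.20 for Sdhb (limma adjusted p = 0.528, 0.388 and 0.513).

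The change of a member tended to run with its row number, less evenly under raloxifene. Under raloxifene the median of all tested probes moved from 0.40 in the first of 8 row bands to -0.10 in the last, and that of the members from 0.22 to -0.32. In bands 2 to 7 between these, the medians lay from 0.16 to -0.16 for all probes and from -0.23 to -0.57 for members. The members' median deviation in raloxifene rat 3 was -0.72 to -1.23 in bands 2 to 5, and its part in these medians was not tested. Under tamoxifen all probes moved from 0.29 to -0.18 and members from 0.19 to -0.25. Under equilin the direction was opposite: all probes from -0.43 to -0.10 and members from -0.40 to -0.15. In equilin rats 12 of the 13 members in the first band were negative and 9 of the 12 in the last. Ndufv1, the NADH-binding subunit of complex I, lies in row 43 and read 8.83, 9.85, 19.4 and 20.7 in vehicle rats. Under tamoxifen it read 19.6, 20.5, 25.8 and 19.4 (0.63 ± 0.23, limma adjusted p = 0.411), and under equilin 11.2, 9.02 and 10.8 (-0.45 ± 0.25, limma adjusted p = 0.3). The equilin rats lay with vehicle rats 1 and 2, and the tamoxifen rats with or above vehicle rats 3 and 4. The part of the row drift in these changes was not tested beyond the corrected values given here.

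**Figure D3:**
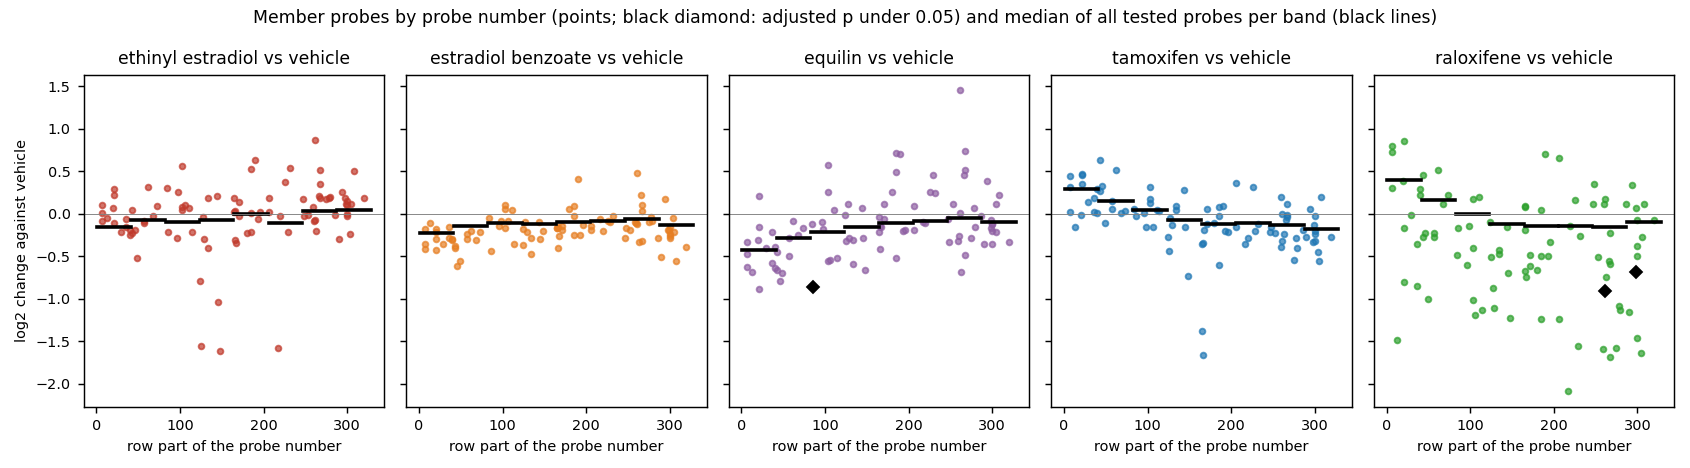
Log2 change against vehicle (y axis) of each tested member probe, plotted by the row part of its probe number (x axis), for the 5 compounds; black lines are the medians of all tested probes in 8 bands of rows and black diamonds are the 3 called members. The lines fall with row number for tamoxifen and raloxifene (0.40 to -0.10) and rise for equilin (-0.43 to -0.10).

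After position correction the called members were different ones. Ndufa4l2 under ethinyl estradiol (-1.23 ± 0.31, limma adjusted p = 0.0403) was called, 1 of 90 against 3.58% of all probes. Sdha probes 62032 (0.51 ± 0.12, limma adjusted p = 0.0375) and 226032 (0.61 ± 0.15, limma adjusted p = 0.0423) were called higher under raloxifene, 2 of 90 against 3.3% of all. Over the 16 Sdha probes the corrected raloxifene changes ran from -1.68 to 0.61, with a median of -0.21 and 8 negative. No member was called under estradiol benzoate (1.38%), equilin (8.08%) or tamoxifen (0.497%). Ndufv3, a small subunit of complex I, and Sdha probe 62032 were called higher for the mean of the 2 SERMs, by 0.56 ± 0.14 and 0.43 ± 0.10 (limma adjusted p = 0.0466 and 0.0394), 2 of 90 against 1.84% of all. Sdha probe 308032 was called higher under ethinyl estradiol than estradiol benzoate (0.86 ± 0.20, limma adjusted p = 0.0412), 1 of 90 against 1.31% of all; without the correction it differed by 1.06 ± 0.24 (limma adjusted p = 0.0845). With the array set as a block added to the position correction, the calls against vehicle ended. Ndufa4l2 under ethinyl estradiol was then at -1.52 ± 0.48 (limma adjusted p = 0.173), and Sdha probes 62032 and 226032 under raloxifene were at 0.48 and 0.54 (limma adjusted p = 0.0877 and 0.0987). For the mean of the SERMs Ndufv3 was at 0.49 and Sdha probe 62032 at 0.40 (limma adjusted p = 0.15 and 0.124). Sdha probe 308032 stayed called between ethinyl estradiol and estradiol benzoate (limma adjusted p = 0.0499). Both groups lie in set A, so the block leaves the size of this difference unchanged. At this probe estradiol benzoate rat 1 read 2.65 on the centred log2 scale, where rats 2 and 3 read 3.79 and 3.85. The ethinyl estradiol rats read 4.48, 4.32 and 4.65, and the part of that 1 low rat in the call was not tested.

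Ndufa4l2 encodes a relative of the complex IV subunit NDUFA4 and is known as a gene induced in hypoxia. It read 6.26, 5.4, 3.8 and 5.35 in vehicle and 2.88, 3.29 and 0.432 under ethinyl estradiol. Under estradiol benzoate it read 5.83, 3.9 and 4.22, under equilin 3.5, 3.37 and 3.07, under tamoxifen 2.16, 2.93, 3.94 and 3.37, and under raloxifene 2.36, 3.26 and 1.2. Ethinyl estradiol, equilin and raloxifene did not overlap vehicle, while tamoxifen and estradiol benzoate did. The uncorrected change was -1.61 ± 0.46 under ethinyl estradiol (limma adjusted p = 0.0983), and it was -0.76 without ethinyl estradiol rat 3 (limma adjusted p = 0.297). That rat also had the highest summed intensity of pancreatic acinar cell markers, 1180, against 4.85 to 196 in the other 19 rats, and the part of this in the value was not tested.

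**Figure D4:**
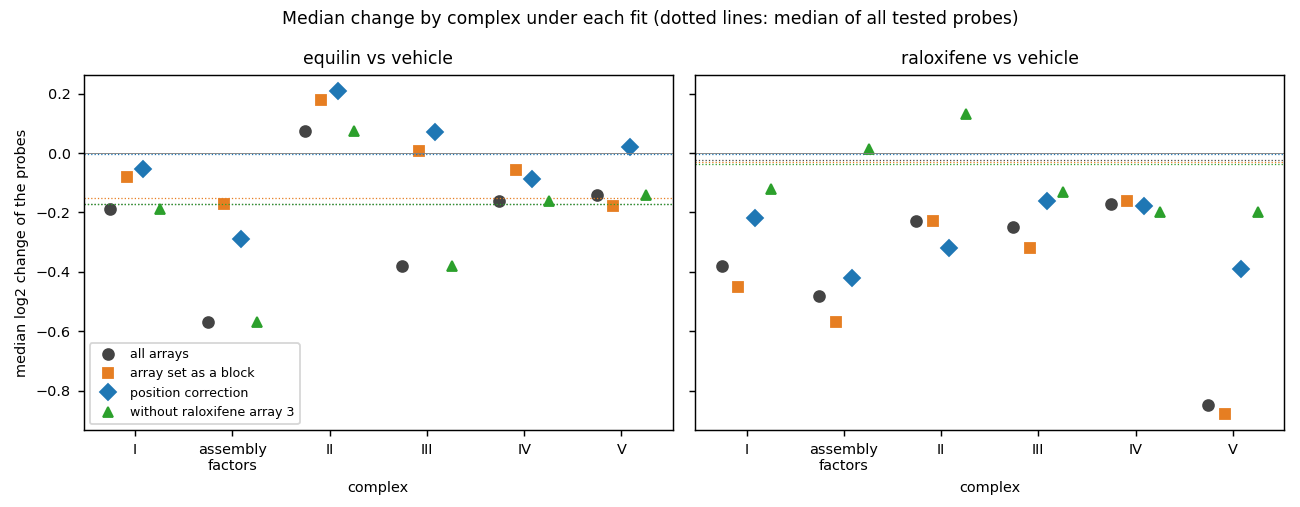
Median log2 change (y axis) of the tested probes of each complex (x axis) under equilin and raloxifene in 4 fits; dotted lines are the medians of all tested probes. Complex V under raloxifene moves from -0.85 with all arrays to -0.20 without raloxifene rat 3, and the 6 assembly factors under equilin from -0.57 to -0.29 after position correction.

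Sdha, which encodes the flavoprotein that oxidises succinate, has 16 probes, and these show how far probes of 1 gene can part. They lie in 4 columns of the numbering: columns 25, 60 and 109 in rows 21, 103, 185 and 267, and column 32 in rows 62, 144, 226 and 308. The sources used here do not say whether the 4 probes of a column share a sequence. Under raloxifene the 16 log2 changes ran from -1.69 to 0.85 and under equilin from -0.89 to 0.74. With all arrays and centring on the median alone, no Sdha probe was called in any comparison. Under raloxifene, column 25 averaged -1.19, column 109 -0.41, column 32 0.16 and column 60 0.21. Without raloxifene rat 3 these were -0.18, 0.064, 0.092 and 0.34. Rat 3 read 0.286 to 0.848 at the column 25 probes, where raloxifene rats 1 and 2 read 4.67 to 6.63.

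Single rats set the Sdha values in other columns too. At the 4 column 60 probes, tamoxifen rat 3 read 1.42, 1.56, 1.5 and 1.44 and vehicle rat 4 read 2.37, 2.51, 2.48 and 2.29. The other vehicle rats read 5.51 to 10.7 there and the other tamoxifen rats 7.38 to 15.7. At Sdha probe 144032 in column 32 the same rats read 24.1 and 18, where the other 18 read 7.74 to 23.4. Atp5f1b probe 261045, for the catalytic beta subunit of the ATP synthase, was low in the same 2 rats, at 2.97 in vehicle rat 4 and 1.41 in tamoxifen rat 3, against 16.1 to 51.2 in the other 18. The other Atp5f1b probe read 160 and 172 in them. Of 24562 tested probes, 81 were low spots in both rats. For column 60 the equilin change of 0.56 became 0.12 without vehicle rat 4, and that of tamoxifen turned from 0.13 to -0.30. The tamoxifen change was 0.83 without tamoxifen rat 3 and 0.40 without both rats, so its direction depends on which rat is left out.

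**Figure D5:**
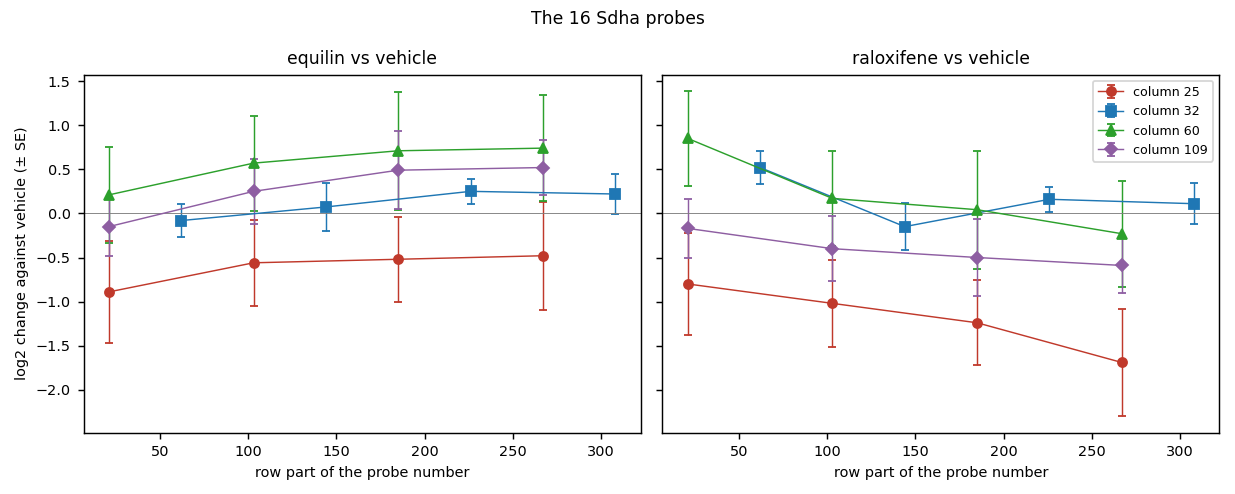
Log2 change against vehicle (y axis, ± SE) of the 16 Sdha probes by the row (x axis) and column (colour) of the probe number, under equilin and raloxifene. Columns 25, 60 and 109 rise with row under equilin and fall with row under raloxifene, and column 25 lies lowest, down to -1.69.

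Other core members of each complex did not pass the test. Cox4i1, the main regulatory subunit of complex IV, read 83.7, 75.2, 62.9 and 49.5 in vehicle and 103, 88.3 and 107 under ethinyl estradiol, with no overlap (0.54 ± 0.18, limma adjusted p = 0.181). Ndufa9, of the complex I matrix arm, was dim, at 0.652 to 0.892 in vehicle and 1.05, 1.01 and 1.14 under equilin (0.38 ± 0.16, limma adjusted p = 0.171). The brighter Atp5f1b probe read 160 to 185 in vehicle and 138, 152, 172 and 55.7 under tamoxifen, where rat 4 was low (-0.55 ± 0.25, limma adjusted p = 0.53; -0.19 ± 0.14 without that rat). Uqcrq, a small subunit of complex III, read 59.7 to 86.6 in vehicle and 51.2, 2.91, 55.7 and 61 under tamoxifen, so that its change of -1.38 ± 0.63 (limma adjusted p = 0.536) rests on rat 2 and was -0.33 ± 0.16 without it. Ndufb8, Sdhd, Uqcrc2, Uqcrfs1 (the Rieske iron-sulfur protein), Cox5a, Cox6c and Atp5f1a were called in none of the 5 comparisons with vehicle. Their largest uncalled changes were under raloxifene, at -1.19 ± 0.52 for Atp5f1a (limma adjusted p = 0.149) and -1.13 ± 0.42 for Cox6c (limma adjusted p = 0.107). Both rest on raloxifene rat 3, which read 8.05 and 1.99 where rats 1 and 2 read 72.3 and 79 for Atp5f1a and 10.5 and 8.66 for Cox6c. Without that rat the changes were -0.12 ± 0.22 for Atp5f1a and -0.39 ± 0.30 for Cox6c (limma adjusted p = 0.866 and 0.618).

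Several subunits of complex IV exist as pairs of isoforms, a widely expressed one and one found mainly in muscle or in testis. Cox6a1, the widely expressed form, had a log2 change of -0.79 ± 0.44 under ethinyl estradiol (limma adjusted p = 0.444). This value rests on ethinyl estradiol rat 2, which read 15.3 where the other two read 105, and without that rat the change was 0.14 ± 0.20 (limma adjusted p = 0.836). Cox6a2, the heart and skeletal muscle form, had a change of -0.08 ± 0.29 under ethinyl estradiol (limma adjusted p = 0.942). Cox7a2 had a change of -0.07 ± 0.18 under equilin (limma adjusted p = 0.854) where Cox7a2l was called. Cox8a had a change of -0.22 ± 0.30 under equilin (limma adjusted p = 0.687) and of 0.45 ± 0.21 at its other probe (limma adjusted p = 0.216). Cox8b, the muscle and brown fat form, and Cox8c, the testis form, were too dim to be tested. Ndufa4, Cox7a1, Cox6b1 and Cox7b2 have no probe with a single symbol here, and Cox4i2 and Cox5b sit on probes that carry several symbols; they are not analysed here.

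The estrogens were compared with each other at the same dose, and so were the SERMs, in 4 pairs whose p-values are adjusted over all probes within each pair. Ethinyl estradiol carries an ethinyl group on the D ring of estradiol, estradiol benzoate is an ester of estradiol, and equilin has an additional double bond in the B ring. No member was called in any pair, which does not show that the compounds act alike. For Cox7a2l, ethinyl estradiol exceeded equilin by 0.64 with a 95% confidence interval (CI) of 0.19 to 1.10 (limma adjusted p = 0.317). Equilin against estradiol benzoate gave -0.42 (95% CI -0.88 to 0.04). Ethinyl estradiol against estradiol benzoate gave 0.23 (95% CI -0.23 to 0.68). For Atp5po tamoxifen exceeded raloxifene by 0.59 (95% CI 0.22 to 0.97, limma adjusted p = 0.352), and for Ndufs1 by 0.36 (95% CI 0.02 to 0.69, limma adjusted p = 0.37). For Ndufa4l2 ethinyl estradiol against estradiol benzoate gave -1.41 (95% CI -2.45 to -0.37, limma adjusted p = 0.338). Over the 90 probes the median difference between ethinyl estradiol and estradiol benzoate was 0.21, with 76 positive, against 0.03 for all tested probes; these arrays lie in the same set. Between tamoxifen and raloxifene it was 0.29 against -0.02. Without raloxifene rat 3 that median was 0.022 against -0.0054, with 48 of the 90 positive.

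Lists of other mitochondrial genes were set beside the members. Of 40 tested genes that encode assembly and cofactor proteins of the respiratory chain, 1 was called: Sco1, a copper chaperone for complex IV, was lower under equilin (-0.77 ± 0.20, limma adjusted p = 0.0431). That was 1 of 53 tested probes, against 3.69% of all. After position correction 0 probes of this list were called under equilin. None of the 11 tested genes of the citrate cycle, 18 of fatty acid oxidation, 12 of mitochondrial carriers and uncoupling, 60 of the mitochondrial ribosome or 19 regulators of mitochondrial biogenesis was called in any of the 11 comparisons. Their medians under equilin were -0.08, -0.08, 0.07, -0.27 and -0.20, against -0.17 for all probes. Under raloxifene the mitochondrial ribosome median was -0.24, the assembly and cofactor median -0.19, and the others lay between -0.09 and 0.08. After position correction Slc25a1, the mitochondrial citrate carrier, was higher under ethinyl estradiol (1.10 ± 0.21, limma adjusted p = 0.0111) and equilin (1.06 ± 0.21, limma adjusted p = 0.0073), and Mrpl37, of the mitochondrial large ribosomal subunit, was lower under equilin (-0.50 ± 0.14, limma adjusted p = 0.0365). The shares of all probes called after this correction were 3.58% under ethinyl estradiol and 8.08% under equilin.

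Markers of the vessel and of its neighbours were checked on the same arrays. The summed intensity of 8 smooth muscle genes ran from 943 to 1020 in vehicle rats, 1040 to 1120 under ethinyl estradiol, 645 to 781 under estradiol benzoate, 698 to 786 under equilin, 666 to 885 under tamoxifen and 895 to 1130 under raloxifene. The vessel wall was thus present in every sample, at lower sums in 3 groups. Adipocyte markers summed to 832 to 1200 in vehicle, 1120 to 1240 under equilin and 853 to 905 under raloxifene. Fibroblast markers summed to 369 to 428 in vehicle, and to 285 to 331 under equilin and 292 to 360 under ethinyl estradiol, both without overlap with vehicle. They summed to 506 in raloxifene rat 3. Endothelial markers summed to 361 to 432 in vehicle and 311 to 339 under raloxifene, again without overlap. Brown fat markers summed to 27 to 35.3 in vehicle and 36.5 to 52.7 under tamoxifen, without overlap, and to between 24.6 and 43.2 in the other groups. Of these markers Ucp1, Elovl3, Zic1 and Cox8b were too dim to test, and so were Myh1, Myh4, Myh7, Tnnt2, Mb and Actn3 of striated muscle. The part of these cell types in the members' values was not tested.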

How the data were processed

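RNA from 20 rats was hybridised to CodeLink Whole Rat Genome arrays and scanned with GenePix Pro 5.0, per the labels' protocols. The authors deposited linear intensities, background-subtracted and scaled per array; the software that made it is not named in the sources used here. Negative intensities became 0, 0.103 (0.1 times the table median) was then added to every value, and the log2 values were centred per array on the median. Fold changes are on this log2 (intensity + offset) scale, which understates changes of dim probes. The dimmest 30% of probes by mean were left out, as were probes without a value in over 1 array of any group. The members had no missing values.

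Group means were estimated over the 20 arrays together in limma 3.58.1 (R 4.3.3), using moderated variances with an intensity trend. P-values were adjusted by Benjamini-Hochberg over all tested probes, with a threshold of 0.05. SE, 95% CI and SD are given as named. The vehicle rats are shared by the 5 comparisons with vehicle. Scripts were tested on simulated data. The number of arrays limits the precision.

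The members, gene lists, comparisons and tests were chosen with earlier results of these data known. Named genes were the called members, 20 fixed subunits at their brightest probe, and the isoform pairs; members shown for their single-rat values (low spots, row position, unadjusted differences) were chosen after their values were seen. Alternatives were other normalisations, offsets and filters, array weights, blocks for array set and replicate number, and leaving out each array; the position correction was added after seeing the data. Promoter sequences are from RefSeq on GRCr8. Probes were matched to genes by symbol only, and other loci are not analysed here.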

Additional observations from a re-analysis of the deposited data

Results flagged for a closer look

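Groups of 4 rats (vehicle and tamoxifen) were checked for a rat standing apart, by the gap to its nearest neighbour as a share of the group's range, against Dixon's 95% critical value. Of 66 checks, 6 passed, where chance passes about 1 in 20. All 6 were in the tamoxifen group. Tamoxifen rat 3 was the highest for Sdhb (5.95 on the centred log2 scale, nearest 5.52, gap share 0.884), for Uqcrc2 (5.55, nearest 5.11, gap share 0.85) and for Cox7a2 (5.80, nearest 5.38, gap share 0.911). The same rat was the lowest for the mean of the complex II probes (3.03, nearest 3.50, gap share 0.847), which holds the 4 low Sdha probes of column 60. Tamoxifen rat 4 was the lowest for Cox5a (5.01, nearest 5.15, gap share 0.841). Tamoxifen rat 2 was the lowest for Cox8a (3.83, nearest 5.18, gap share 0.859).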

How the results depend on the processing

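The 3 called members kept their negative direction in all 34 alternatives run for each, with changes from -0.98 to -0.47 for Cox7a2l under equilin (limma adjusted p from 0.000672 to 0.748), -1.16 to -0.36 for Atp5po under raloxifene (0.00094 to 0.39) and -0.78 to -0.40 for Ndufs1 under raloxifene (0.0157 to 0.39); they passed in 23, 25 and 16 of the 34. Over 135 changes of 27 named probes, 4519 of 4580 values kept their side of the threshold, 38 lost it and 23 gained it, and 223 uncalled values changed sign, none with both values over 0.31 in size. The numbers of called members that follow are for comparisons with vehicle unless a pair is named. Quantile normalisation gave 4 under raloxifene (1.95% of all probes) and 1 for the mean of the SERMs (0.562%), an offset of 0.5 times the median gave 4 under raloxifene (2.74%), and no filter on dim probes gave 1 (0.316%). The equilin count stayed at 1 under quantile normalisation, but with another member, and no share of all probes is given for it. Sdha probe 226032 was called higher (0.57, limma adjusted p = 0.0219), and Cox7a2l was at -0.55 (limma adjusted p = 0.103). Array weights, which gave raloxifene rat 3 a weight of 0.0701 and equilin rat 2 one of 6.98, called 27 members under equilin (5 higher, 22 lower, against 30.8% of all probes), 5 under raloxifene (4.2%), 1 for the mean of the estrogens (6.68%), 1 for that of the SERMs (1.99%), 4 between ethinyl estradiol and equilin (7.16%), 12 between equilin and estradiol benzoate (18.4%) and 7 between tamoxifen and raloxifene (6.44%). Fitting only the groups compared gave 0 under equilin and 0 under raloxifene, and the array set as a block also gave 0 and 0. Position correction gave 1 under ethinyl estradiol, 0 under equilin, 2 for the mean of the SERMs and 1 between ethinyl estradiol and estradiol benzoate. With the array set as a block added, these were 0 under ethinyl estradiol (1.16% of all probes), equilin (2.72%) and raloxifene (0.0733%). They were 0 for the mean of the SERMs (0.448%) and 1 between ethinyl estradiol and estradiol benzoate (1.25%). With position correction and without raloxifene replicate 3 they were 2 under ethinyl estradiol (6.96% of all probes), 5 under equilin (16.9%), 0 under raloxifene, 1 for the estrogens (11.8%), 4 for the SERMs (2.24%) and 2 between ethinyl estradiol and estradiol benzoate (3.33%).

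Leaving out each array in turn, the count ran from 0 to 2 under equilin, 0 to 23 under raloxifene, 0 to 4 for the mean of the SERMs, 0 to 1 for that of the estrogens, 0 to 1 between ethinyl estradiol and estradiol benzoate and 0 to 1 between tamoxifen and raloxifene. The 23 came without raloxifene rat 2 (20 lower; 15.4% of all probes called), and 12 without raloxifene rat 1 (9.47%). In the other 5 comparisons it stayed at 0. The same replicate numbers did not pair the rats: over 28 pairs the correlation of deviations ran from -0.426 to 0.297 and passed 0.1 in 4. With the replicate block the count was 0 under equilin, where Cox7a2l had a change of -0.81 (limma adjusted p = 0.0826). It was 2 under raloxifene, and neither count is set beside a share of all probes here.

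Differences in the mean level of a complex moved by more than the SD of its group in these cases. Quantile normalisation gave, for complexes I, II, III, IV and V, -0.024, 0.054, -0.042, 0.035 and 0.05 under estradiol benzoate and 0.011, 0.33, -0.024, 0.10 and 0.17 under equilin, with -0.27 for the assembly factors under equilin and -0.046 for complex V under tamoxifen. For complex V under estradiol benzoate, no centring gave -0.13, an offset of 0.05 times the median -0.18 and one of 0.5 times -0.16, and no centring gave -0.067 for complex IV under equilin. Position correction gave -0.032 for complex I under ethinyl estradiol. It gave -0.11 and -0.038 for complexes III and V under estradiol benzoate, and -0.046, 0.22, 0.013, -0.0083 and 0.12 for complexes I to V under equilin. The cause of these moves was not tested. Dim probes are limited by signal over background, and the design by 3 or 4 rats per group.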
